A study of Mus musculus with 23 samples.

Results

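Interleukins are secreted signalling proteins through which leukocytes and epithelial cells address one another, and each acts through receptor chains on the cell that receives it. The genes described here are the interleukins and interleukin receptor genes of the mouse array, chosen as the symbols that begin with Il and a digit. The array names 83 such genes, and 72 of them were kept, of 28209 genes kept in all. Each gene was read by its brightest probe, and the gene was kept where the scanner marked that probe as well above background in 7 or more of the 23 samples. By role, 29 of the 72 are secreted ligands or ligand-like antagonists, 40 are receptor chains or soluble binding proteins, and 3 are of other kinds.

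The tissue was the circumvallate papilla, a taste organ of the rear tongue, from male C57Bl6/j mice, with 1 array per sample. The Lean group (n = 7) ate a chow of 3% fat (w/w), whereas an obesogenic diet high in saturated fat was given to the DIO group (n = 8). The labels do not define DIO-R (n = 8), taken here to be DIO mice allowed 60% of their free energy intake. Neither age nor the length of the diets is given, and nothing says that each sample is a separate animal, so p-values measure the spread between these samples, which may in part be technical. The papilla was dissected from lingual epithelium that enzymes had freed from the connective tissue, so a sample can hold keratinocytes, taste cells, resident leukocytes and some remaining stroma. All 9 taste cell markers examined were well above background on all 23 arrays. In such whole tissue, fewer cells of a type and less RNA per cell cannot be told apart.

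In a squamous epithelium, keratinocytes make members of the interleukin 1 family. Among them, interleukin 33 and the interleukin 36 group act on neighbouring cells through receptors that share the accessory chain Il1rap. Lymphocytes make interleukins 17 and 22, which act on epithelial cells through Il17ra with Il17rc and through Il22ra1 with Il10rb. Interleukin 22 is also bound by Il22ra2, a secreted protein with no membrane anchor that keeps the cytokine from its receptor. T cells and natural killer cells carry receptors built on the common gamma chain, Il2rg.

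The probes read for the genes on which the results turn are shown by their first 30 bases of 60, so that it is clear which stretch of each transcript was measured. Each region is given in mouse build mm9 with its strand, per the file headers; exon and untranslated region boundaries of that build were not used here. The decoy receptor Il22ra2 was read at chr10:19354355-19354414, plus strand, and the signalling chain Il22ra1 at chr4:135310900-135310959, plus strand. Il18 was read at chr9:50389761-50389820, plus strand, Il1f5 at chr2:24137480-24137539, plus strand, Il1f6 at chr2:24081127-24081186, plus strand, and Il1f8 at chr2:24015564-24015623, plus strand. Il33 was read at chr19:30035101-30035160, plus strand, Il3ra at chr14:15187898-15187957, plus strand, Il18bp at chr7:109164100-109164159, minus strand, and Il21r at chr7:132776725-132776784, plus strand.
Il22ra2: gctttgactttgtttgcttgggttttccct
Il22ra1: acaaaaacacaaccagaactatctgagata
Il18: aggatgaaaatggggataaatctgtaatgt
Il1f5: gtctctactcacataaaaagaagcttgtga
Il1f6: atgcagaacatcttaccatgttttcatcca
Il1f8: cagacatccatgtctaaaatgccactcatt
Il33: gtgaatctgtacgatatctttaaagtagta
Il3ra: agctcttgaagactgcgaggtgacgcctgt
Il18bp: aaactcaagcttcacttctaccctagatta
Il21r: tgctgtgtaaaccttgttccttaatttaat

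Levels below are log2 scanner signals from which each array's own 75th percentile was subtracted, so a level of 0 equals that percentile and a difference of 1 is a doubling. Levels of different probes cannot be set against each other. Of the 72 genes, 59 were well above background on all 23 arrays. The 11 genes that were not kept were Il18rap and Il23a, each well above background on 5 arrays, Il17c and Il9, each on 4, Il6 on 3, Il12b on 2, and Il12a, Il13, Il1rapl2, Il21 and Il31, each on 0. Il6, the acute inflammatory cytokine, was well above background on 0 of 7 Lean, 2 of 8 DIO and 1 of 8 DIO-R arrays.

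No interleukin or interleukin receptor gene passed in any of the 3 comparisons at an adjusted p under 0.05 (limma, Benjamini-Hochberg over all 28209 genes). In DIO minus Lean, 0 of 72 passed against 0.00354% of all genes, and 11 had an unadjusted p under 0.05, 15.3% of the 72 against 8.96% of all genes. Of these 11, 8 were lower in DIO, 11.1% of the 72 against 4.9% of all genes, and 3 higher, 4.17% of the 72 against 4.06%. In DIO-R minus DIO, 0 passed (background 0.0603%) and 8 had an unadjusted p under 0.05, 11.1% of the 72 against 9.73%. Of these, 6 were higher, 8.33% of the 72 against 5.94%, and 2 lower, 2.78% of the 72 against 3.79%. In DIO-R minus Lean, 0 passed (background 0.128%) and 3 had an unadjusted p under 0.05, 4.17% of the 72 against 8.94%. Of these, 1 was higher, 1.39% of the 72 against 4.43%, and 2 lower, 2.78% of the 72 against 4.51%.

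The 72 genes as a whole were centred close to all genes. Their median log2 difference was -0.07 in DIO minus Lean, beside -0.04 over all genes, and 26 of 72 were higher in DIO, 36.1% against 41.1% of all genes. In DIO-R minus DIO both medians were 0.01, and 38 of 72 were higher, 52.8% against 51.6%. In DIO-R minus Lean the medians were -0.03 and -0.02, and 31 of 72 were higher, 43.1% against 44.5%. In DIO minus Lean, 40 of the 72 genes differed by less than 0.2 in either direction, and the extremes were Il22ra2 at -1.55 and Il21r at 0.66.

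**Figure D1:**
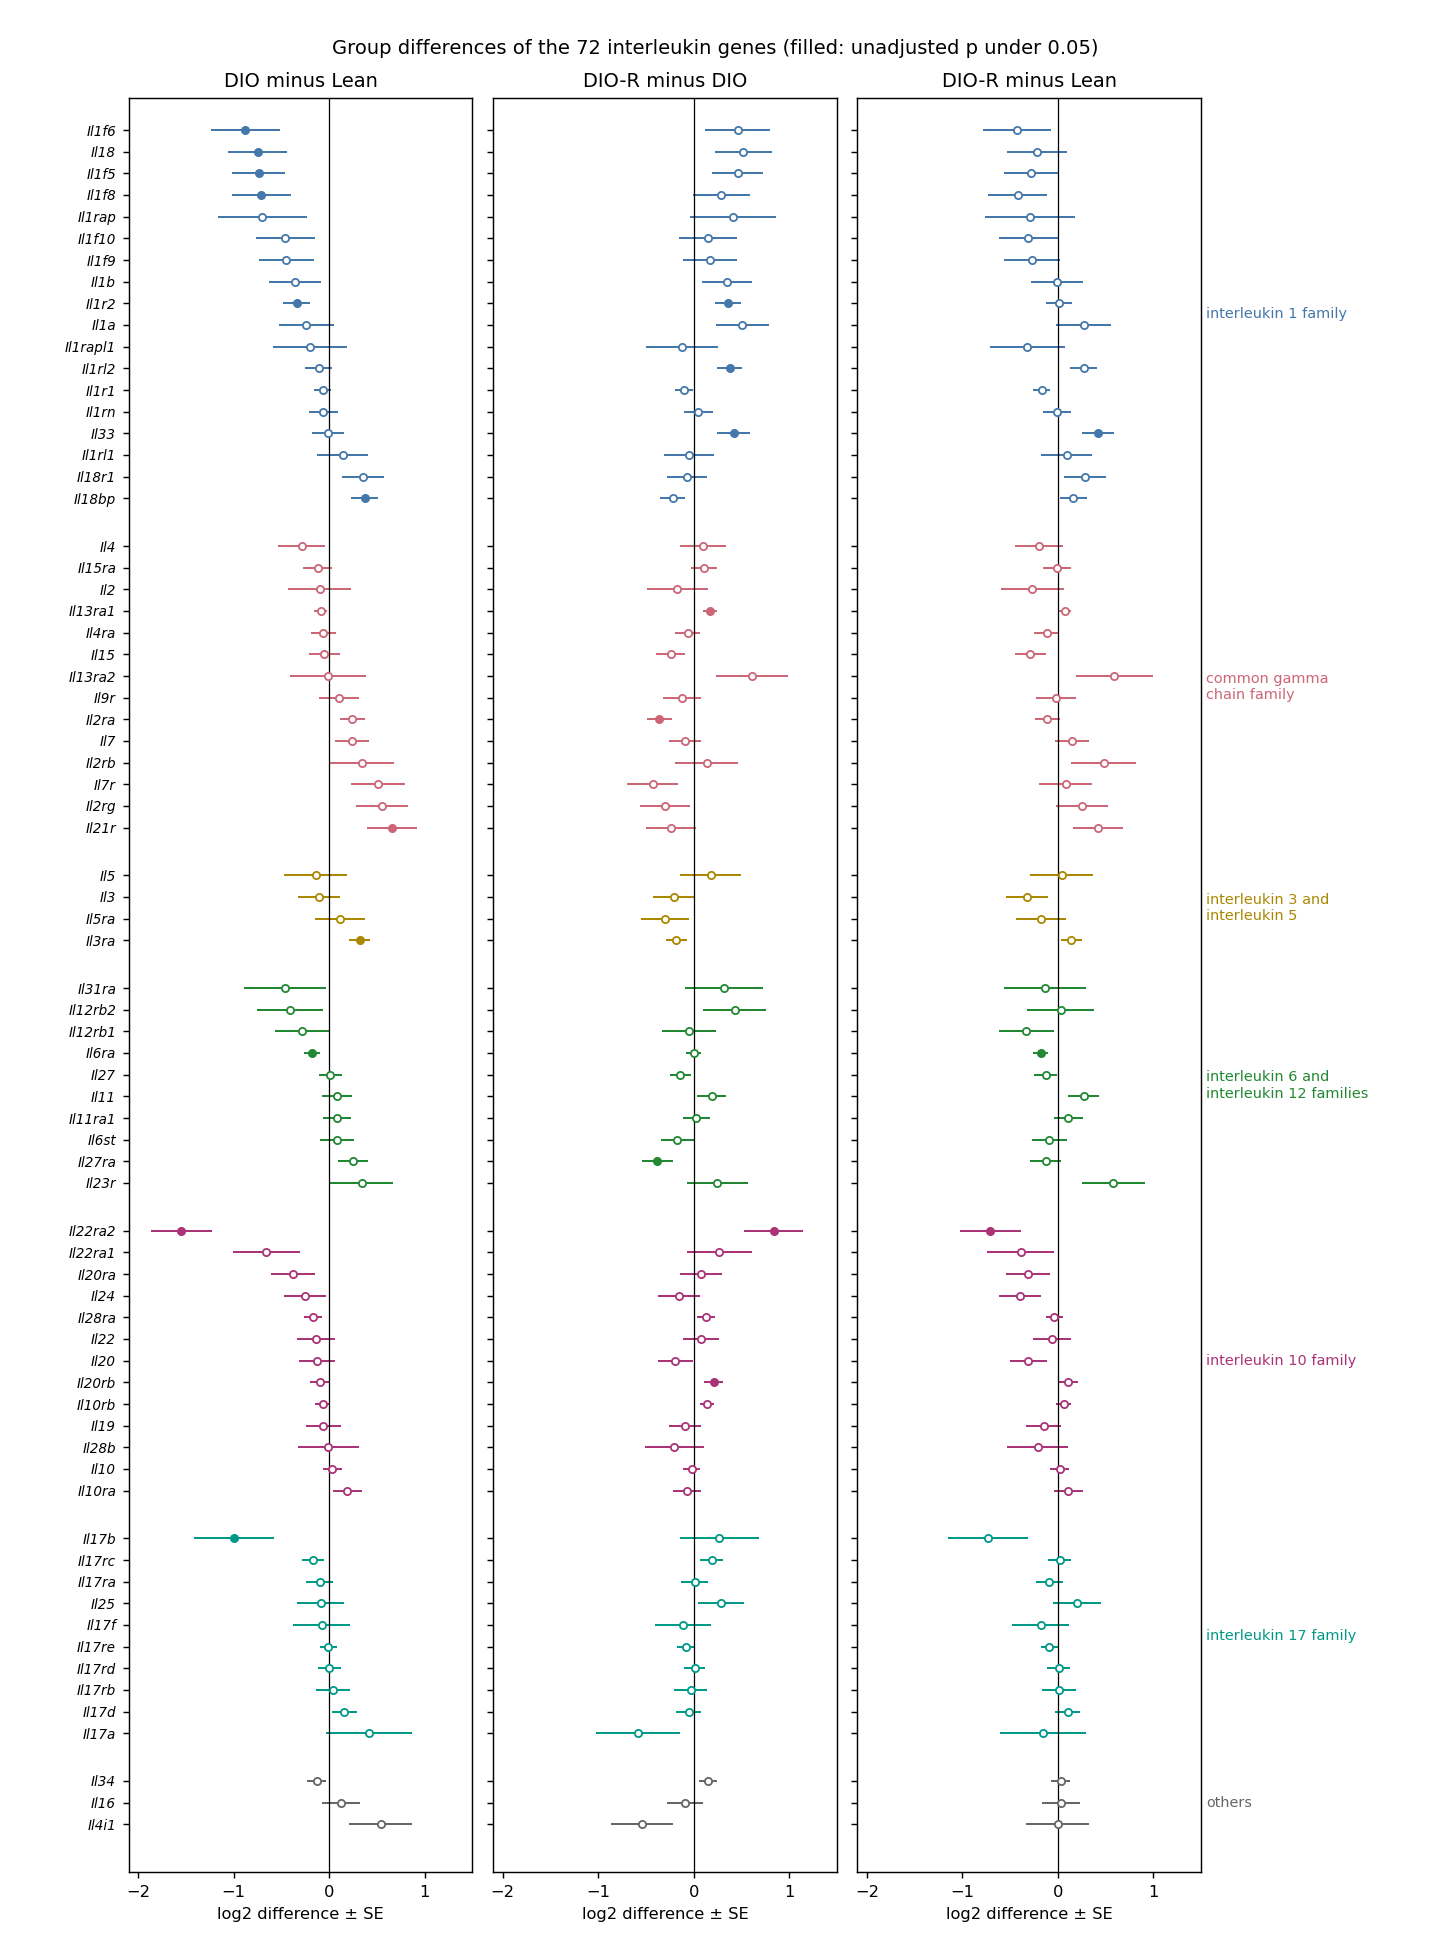
Log2 differences with standard errors (x axis) of the 72 interleukin and interleukin receptor genes (y axis, grouped by family and sorted by DIO minus Lean), for each of the 3 comparisons. Filled points have an unadjusted p under 0.05, and none passed after adjustment; Il22ra2 lies farthest to the left in DIO minus Lean, at -1.55.

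Il22ra2 stood lowest relative to Lean. Its level in the 7 Lean samples was -2.93 at the lowest, -2.76 at the median and -1.91 at the highest. In the 8 DIO samples it was -5.32, -3.97 and -3.06, so every DIO sample lay below every Lean sample. In the 8 DIO-R samples it was -3.98, -3.40 and -2.09, which overlapped both other groups. The decoy receptor was the only one of the 72 genes whose DIO and Lean samples did not overlap, which held for 0.121% of all genes. In DIO-R minus DIO and DIO-R minus Lean none of the 72 had groups that did not overlap, against 0.0886% and 0.305% of all genes. DIO 2 and DIO 8 were the lowest samples, at -5.32 and -5.29, and DIO-R 4 was the highest of its group.

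The group means of Il22ra2 were -2.58 ± 0.44 (SD, n = 7) in Lean, -4.13 ± 0.80 (SD, n = 8) in DIO and -3.29 ± 0.60 (SD, n = 8) in DIO-R. DIO was 2.94-fold lower than Lean, a log2 difference of -1.55 ± 0.32 (SE) with a 95% confidence interval from -2.22 to -0.89 (limma adjusted p = 0.0975). The gene thus did not pass over all genes. DIO-R was 0.84 ± 0.31 (SE) above DIO (limma adjusted p = 0.48), with 8 of 8 DIO-R samples above the DIO mean, and 0.71 lower than Lean (log2 difference -0.71 ± 0.32 SE, limma adjusted p = 0.515). The comparisons with DIO share its 8 samples, and a low DIO mean enters both.

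The call on Il22ra2 turned on the fit. With the slide as a block the difference between DIO and Lean was -1.61 (limma adjusted p = 0.0371), with array weights -1.68 (adjusted p = 0.0429) and without DIO 6 -1.71 (adjusted p = 0.0449), each past the threshold. Within slides 1, 2 and 3 it was -1.20, -1.24 and -2.64, with 2 or 3 arrays of each group on a slide. The sign was the same in each of the 35 other settings. Those that leave out 1 sample could not turn it, because the DIO and Lean samples do not overlap. The size was -0.68 with a normexp background correction and -0.89 in the same fit of the authors' deposited values.

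Around this decoy stand the ligand and the signalling chains, and none of them passed in any comparison. The interleukin 22 gene itself, Il22, had means of -3.36 ± 0.42 (SD, n = 7), -3.50 ± 0.49 (SD, n = 8) and -3.42 ± 0.25 (SD, n = 8) in Lean, DIO and DIO-R, and differed by -0.14 ± 0.20 (SE) in DIO minus Lean. Il22ra1, the specific receptor chain, ran from -4.38 to -2.83 in Lean, from -6.15 to -3.37 in DIO and from -4.83 to -3.45 in DIO-R. Its DIO minus Lean difference was -0.66 ± 0.35 (SE) (limma adjusted p = 0.607), and the DIO minimum came from DIO 2, which was also the lowest for Il22ra2. A second Il22ra1 probe differed by -0.48 ± 0.51 (SE) in the same comparison, and by 1.25 ± 0.50 (SE) against 0.27 ± 0.34 (SE) in DIO-R minus DIO. Il10rb, the chain shared with the interleukin 10 receptor, differed by -0.07 ± 0.08 (SE) in DIO minus Lean and 0.14 ± 0.07 (SE) in DIO-R minus DIO.

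**Figure D2:**
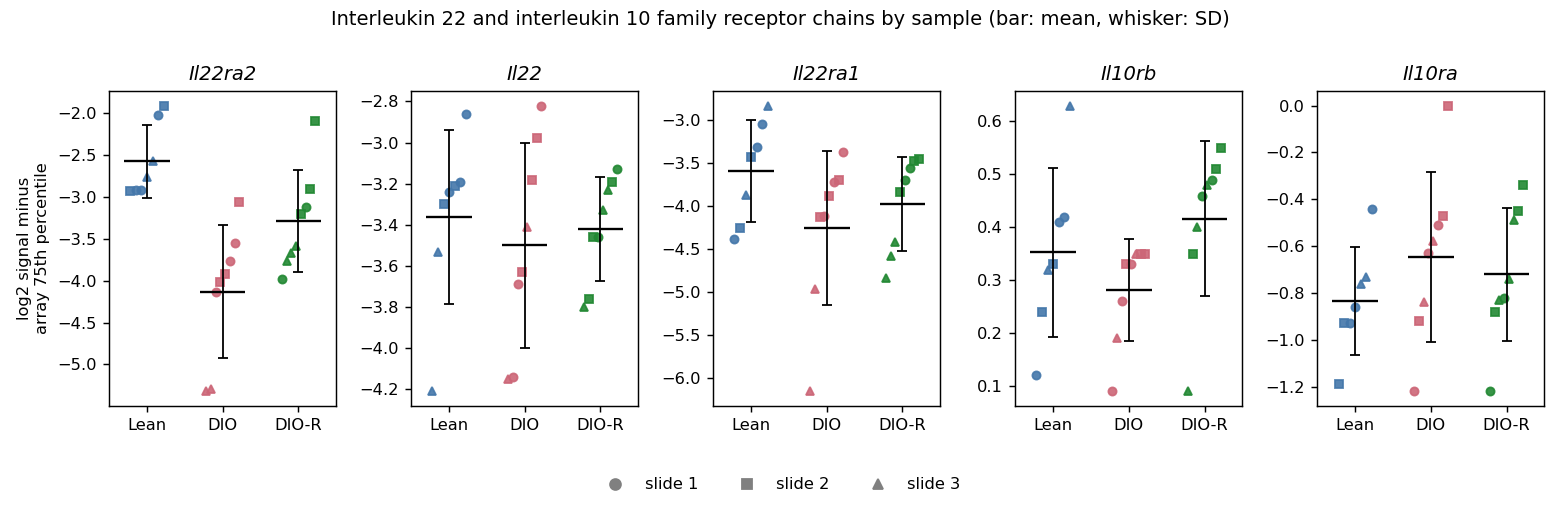
Level of the decoy Il22ra2, the cytokine Il22, its receptor chains Il22ra1 and Il10rb, and Il10ra (y axis, log2 signal minus the array's 75th percentile) in each Lean, DIO and DIO-R sample, with the mean and SD of the group; symbols mark the slide and each panel has its own scale. All 8 DIO samples of Il22ra2 lie below all 7 Lean samples, and the groups overlap in the other 4 panels.

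The rest of the interleukin 10 family gave no difference beyond the spread of its samples at the threshold used. Of its 6 receptor genes other than Il22ra2, 5 were lower in DIO than in Lean, with a median of -0.14, and Il10ra, the ligand-binding chain of the interleukin 10 receptor, was the exception at 0.19 ± 0.15 (SE). Il10, the anti-inflammatory cytokine, lay between -2.85 and -2.64 in Lean, between -3.11 and -2.44 in DIO and between -2.98 and -2.56 in DIO-R, and differed by 0.03 ± 0.10 (SE) in DIO minus Lean. Il20ra and Il20rb form a receptor for interleukins 19, 20 and 24. Il20rb was 0.21 ± 0.10 (SE) higher in DIO-R than in DIO (limma adjusted p = 0.502), and Il20ra differed by -0.38 ± 0.23 (SE) in DIO minus Lean. Among the ligands, Il24 had means of -2.55, -2.80 and -2.95 in Lean, DIO and DIO-R, and all 8 DIO-R samples lay below the Lean mean (difference -0.40 ± 0.22 SE, limma adjusted p = 0.629), while its second probe gave 0.10 ± 0.34 (SE). Il19 differed by -0.06 ± 0.18 (SE) in DIO minus Lean. Il28b and Il28ra, now called Ifnl3 and Ifnlr1, encode an interferon lambda and its receptor chain, and differed by -0.01 ± 0.32 (SE) and -0.17 ± 0.09 (SE) in DIO minus Lean.

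The ligands of the interleukin 1 family lay lower in DIO than in Lean and higher in DIO-R than in DIO, and no single one passed. All 10 had a negative DIO minus Lean difference, in a comparison where 41.1% of all genes were higher. The differences ran from -0.88 to -0.01 with a median of -0.46, beside -0.04 over all genes. Il33 and Il1rn differed little, at -0.01 and -0.06. Of the 10, 4 had an unadjusted p under 0.05 (background 4.9% lower). All 10 had a positive DIO-R minus DIO difference, against 51.6% of all genes, and Il33 was the 1 with an unadjusted p under 0.05 (background 5.94%). These differences ran from 0.05 to 0.52 with a median of 0.38, beside 0.01 over all genes. Without DIO 1 and DIO 6 that median was 0.19, and 9 of 10 were higher. These counts share the DIO samples, and the family was grouped after its values had been seen. Against Lean, 8 of 10 were lower in DIO-R, with a median of -0.24, but the direction differed between slides: 9 and 7 of the 10 were higher on slides 1 and 2, with medians of 0.14 and 0.05, and 9 were lower on slide 3, with a median of -0.69.

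The 4 that differed most were Il1f6, Il18, Il1f5 and Il1f8. On slide 3, with 2 arrays of each group, their DIO minus Lean differences were -2.03, -1.83, -1.78 and -1.92. On slides 1 and 2 they lay between -0.63 and -0.13. Il1f6 encodes interleukin 36 alpha, an epithelial alarmin; its lowest, median and highest levels were 3.51, 4.69 and 5.29 in Lean, 2.02, 3.67 and 5.33 in DIO, and 3.11, 4.20 and 4.69 in DIO-R. It differed by -0.88 ± 0.36 (SE) in DIO minus Lean (limma adjusted p = 0.463). DIO 3 was above every Lean sample, and the other DIO samples lay between 2.02 and 4.12. Il18, an inflammasome-processed cytokine that epithelia store, ran from 1.75 over 2.74 to 4.10 in Lean, from 1.07 over 2.27 to 2.87 in DIO and from 1.99 over 2.75 to 3.49 in DIO-R. It differed by -0.75 ± 0.31 (SE) (limma adjusted p = 0.471), with 8 of 8 DIO samples below the Lean mean although the ranges overlapped.

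Il1f5 encodes the antagonist of the interleukin 36 receptor. Its levels ran from 2.26 over 2.91 to 3.84 in Lean, from 1.24 over 2.37 to 3.44 in DIO and from 1.84 over 2.93 to 3.23 in DIO-R. The DIO minus Lean difference was -0.74 ± 0.28 (SE) (limma adjusted p = 0.425), and its second probe gave -0.58 ± 0.25 (SE). Il1f8, interleukin 36 beta, had means of 1.39 ± 0.69 (SD, n = 7), 0.68 ± 0.57 (SD, n = 8) and 0.97 ± 0.59 (SD, n = 8), and differed by -0.71 ± 0.31 (SE) (limma adjusted p = 0.5). Agonists and the antagonist of the interleukin 36 receptor thus had differences of one sign.

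Of the other ligands, Il1f9, interleukin 36 gamma, differed by -0.45 ± 0.29 (SE) in DIO minus Lean, and Il1f10, an interleukin 1 family member of the same gene cluster, by -0.46 ± 0.31 (SE). Il1b and Il1a, the classical inflammatory agonists, differed by -0.36 ± 0.27 (SE) and -0.24 ± 0.29 (SE), and in DIO-R minus DIO by 0.35 ± 0.26 (SE) and 0.51 ± 0.28 (SE). Without DIO 1, the lowest sample for Il1a at -2.76, the Il1a differences were -0.01 and 0.28. Il1rn, the antagonist of the interleukin 1 receptor, differed by -0.06 ± 0.15 (SE). The probes of Il1f8, Il1f9, Il1f6, Il1f5, Il1f10 and Il1rn lie side by side within chr2:24015564-24205153 of mm9.

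Il33, a nuclear alarmin of barrier epithelium, had another pattern. Its levels ran from 3.27 over 3.72 to 4.30 in Lean, from 2.98 over 3.73 to 4.35 in DIO, and from 3.87 over 4.09 to 4.34 in DIO-R. Lean and DIO had equal means of 3.70, and all 8 DIO-R samples were above both. DIO-R was 0.42 ± 0.17 (SE) above DIO (limma adjusted p = 0.48) and 0.42 ± 0.17 (SE) above Lean (limma adjusted p = 0.471). Without DIO 1 and DIO 6 it was 0.21 above DIO. Within slides 1, 2 and 3, Il33 differed by 0.67, 0.63 and -0.10 between DIO-R and Lean. Its receptor chain Il1rl1 differed by 0.09 ± 0.27 (SE) in that comparison.

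**Figure D3:**
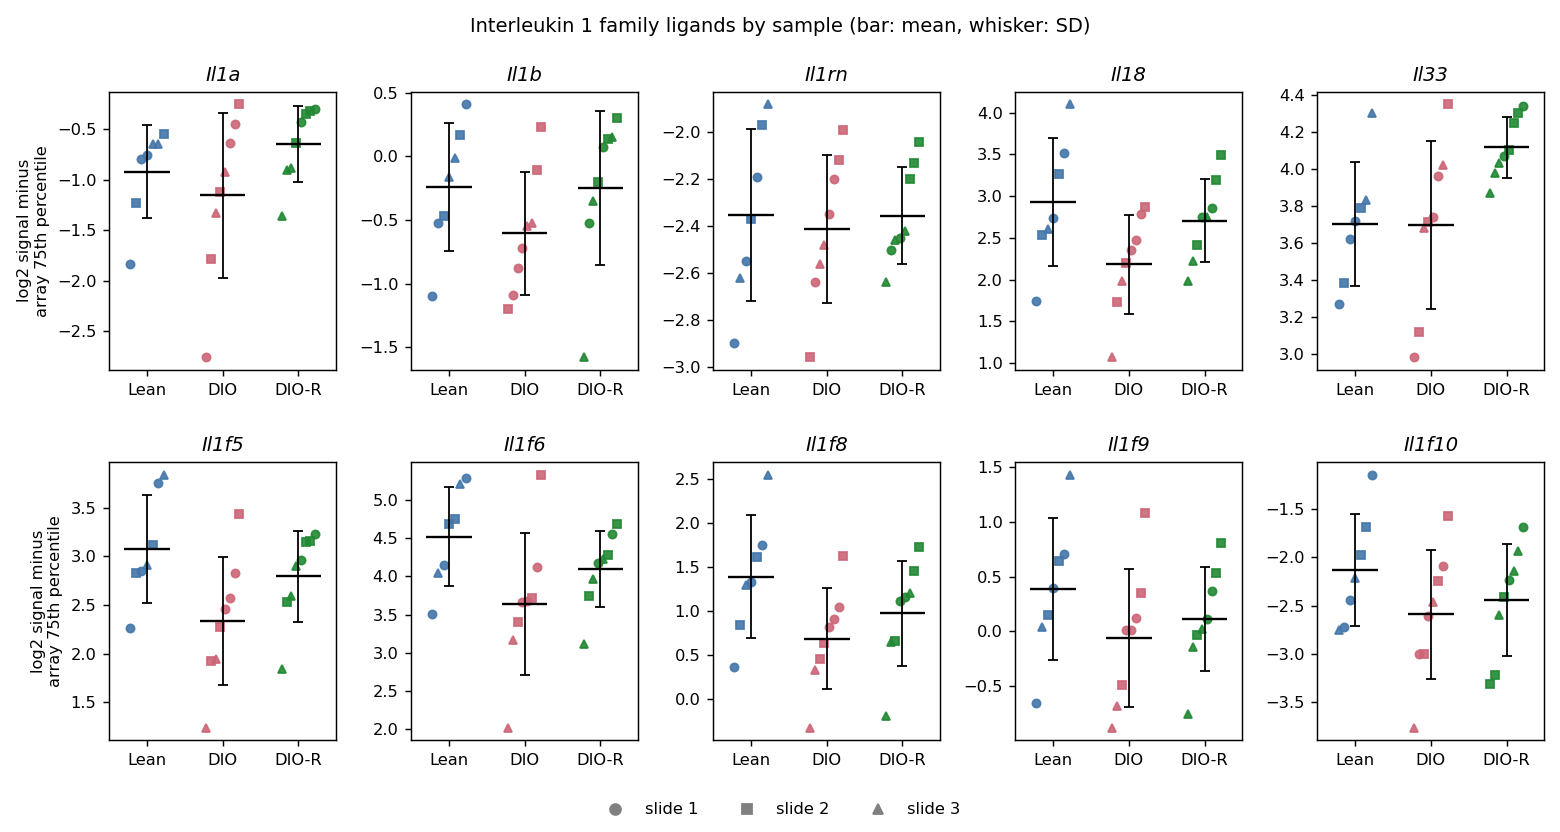
Level of the 10 interleukin 1 family ligands (y axis, log2 signal minus the array's 75th percentile) in each Lean, DIO and DIO-R sample, with the group mean and SD; symbols mark the slide and each panel has its own scale. The groups overlap in all 10 panels, and DIO 3 is the highest DIO sample in each.

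Some samples stood alike across most of these ligands, and others across some only. DIO 3 was the highest DIO sample for each of the 10. Lean 7 was the lowest Lean sample for all but Il1f10, and DIO-R 8 the lowest DIO-R sample for all but Il1rn and Il1f10. DIO 2 was the lowest DIO sample for Il18, Il1f5, Il1f6, Il1f8, Il1f9 and Il1f10, but the second highest for Il33. DIO 1 was the lowest for Il1a and Il33, but the second highest for Il18, Il1f5, Il1f6 and Il1f10. After each gene was centred on its mean over the 23 samples, the average of the 10 ligands was below 0 in 7 of 8 DIO, 1 of 7 Lean and 3 of 8 DIO-R samples. It ran from -0.61 (Lean 7) to 0.84 (Lean 3) in Lean, from -0.89 (DIO 2) to 0.68 (DIO 3) in DIO and from -0.64 (DIO-R 8) to 0.43 (DIO-R 4) in DIO-R. Within slides 1, 2 and 3, 8, 9 and 10 of the 10 ligands were lower in DIO than in Lean, with medians of -0.20, -0.26 and -1.08. The number lower was 7 with the replicate number as a block and 7 without DIO 1 and DIO 6. Over 35 settings the median lay between -0.61 and -0.26, and those that leave out a DIO-R sample cannot change it. In DIO-R minus Lean between 3 and 8 of the 10 were lower over the same settings, and the median lay between -0.39 (without Lean 7) and 0.04 (replicate number as a block).

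Markers of differentiated keratinocytes moved with the average of the ligands. All 12 of 12 were lower in DIO than in Lean, with a median of -0.47 and 5 at an unadjusted p under 0.05 (background 4.9%). All 12 were higher in DIO-R than in DIO (background 51.6%), with a median of 0.38. Their summed level follows its brightest probes, Lor and Krt13. It ran from 1006 to 2388 in Lean, from 713 to 1893 in DIO and from 1047 to 1951 in DIO-R. Sums are in units of each array's 75th percentile. Each of the 12 markers was well above background on all 23 arrays. Their centred average was lowest in Lean 7 (-0.54) and DIO 2 (-1.05) and highest in Lean 3 (0.86) and DIO 3 (0.45), the same samples as for the ligands; in DIO-R the lowest was DIO-R 8 for both and the highest DIO-R 6 against DIO-R 4. The 6 basal keratinocyte markers had a median of -0.01 in DIO minus Lean, and all 6 were higher in DIO-R than in DIO (median 0.18) and than in Lean (median 0.15), the order of groups seen for Il33. Their summed level ran from 421 to 617 in Lean, from 323 to 656 in DIO and from 506 to 677 in DIO-R. Markers of underlying tissue differed too. All 8 skeletal muscle markers were lower in DIO-R than in DIO, and 7 of 8 than in Lean (median -0.58 in both). Of 8 fibroblast markers, 7 were lower in DIO-R than in DIO (median -0.21), but 5 were higher than in Lean (median 0.12). The part of keratinocyte or underlying tissue content in the ligand levels, Il33 included, was not tested.

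The receptors and binding proteins of the family did not share 1 direction. Of 8, 3 were higher and 5 lower in DIO than in Lean, with a median of -0.09. Il18bp, a secreted protein that neutralises interleukin 18, ran from -2.80 over -2.41 to -2.23 in Lean, from -2.50 over -2.15 to -1.67 in DIO and from -2.92 over -2.28 to -2.06 in DIO-R. It was 0.37 ± 0.14 (SE) higher in DIO (limma adjusted p = 0.414), opposite in sign to Il18. Its receptor chain Il18r1 was higher by 0.35 ± 0.22 (SE), and by 0.16 without DIO 10, the highest DIO sample for that gene.

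Il1r2, the decoy receptor of interleukin 1, ran from 2.85 over 3.06 to 3.25 in Lean, from 2.04 over 2.88 to 3.18 in DIO and from 2.81 over 3.11 to 3.24 in DIO-R. DIO 6 and DIO 1, at 2.04 and 2.11, were far below the other groups. The difference was -0.34 ± 0.14 (SE) in DIO minus Lean (limma adjusted p = 0.484) and 0.36 ± 0.14 (SE) in DIO-R minus DIO (adjusted p = 0.48), so DIO-R and Lean differed by 0.01 ± 0.14 (SE). Without DIO 1 and DIO 6, DIO-R was 0.14 above DIO. Il1rl2, the receptor chain of the interleukin 36 cytokines, had means of -4.07 ± 0.32 (SD, n = 7), -4.18 ± 0.27 (SD, n = 8) and -3.79 ± 0.21 (SD, n = 8). It was 0.38 ± 0.13 (SE) higher in DIO-R than in DIO (limma adjusted p = 0.457), the smallest unadjusted p of the 72 genes in that comparison, and 0.27 ± 0.14 (SE) higher than in Lean (adjusted p = 0.58); with the normexp background correction these were 0.10 and 0.05. Il1r1, the signalling receptor, differed by -0.17 ± 0.09 (SE) in DIO-R minus Lean (limma adjusted p = 0.626). The 3 probes of the accessory chain Il1rap disagreed in DIO minus Lean, at -0.70 ± 0.47 (SE), 0.08 ± 0.13 (SE) and -0.04 ± 0.29 (SE), and its direction is not settled.

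Of the common gamma chain family, 6 of 10 receptor genes were higher in DIO than in Lean (background 41.1%). Their median was 0.17, beside -0.04 over all genes. Of the 10, 1 was higher at an unadjusted p under 0.05 (background 4.06%) and 0 were lower. That 1 was Il21r, the interleukin 21 receptor of lymphocytes, which ran from -5.46 over -4.84 to -4.28 in Lean, from -4.74 over -4.57 to -3.16 in DIO and from -5.13 over -4.40 to -4.02 in DIO-R. Its difference was 0.66 ± 0.26 (SE) (limma adjusted p = 0.463) and 0.11 with the normexp correction, and its probe was well above background on 4 of 7 Lean, 8 of 8 DIO and 7 of 8 DIO-R arrays. Within slides 1, 2 and 3 it was 0.23, 1.80 and -0.14, so it was not of 1 sign across slides and was largest on slide 2.

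Il2rg, the common gamma chain, ran from -3.32 over -2.62 to -2.24 in Lean, from -2.76 over -2.17 to -0.92 in DIO and from -3.81 over -2.15 to -2 in DIO-R, and was 0.55 ± 0.27 (SE) higher in DIO than in Lean. Il7r, the interleukin 7 receptor of T cells and innate lymphoid cells, differed by 0.51 ± 0.28 (SE). DIO 10 was the highest DIO sample for Il2ra, Il2rb, Il2rg, Il7r and Il13ra2. Without DIO 10, Il2rg differed by 0.38, Il7r by 0.36 and Il2rb by 0.05 in place of 0.34, and the median of the 10 receptor genes was 0.05.

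Several leukocyte and blood marker lists lay higher in DIO, and others did not. Of the 11 T and natural killer cell markers 7 were higher in DIO than in Lean, with a median of 0.18. Their summed level ran from 5.88 to 9.13 in Lean, from 5.84 to 10.7 in DIO and from 5.76 to 7.13 in DIO-R, highest in DIO 10. The brightest probes in that sum, Cd4 and Cd3e, differed by -0.14 ± 0.18 (SE) and -0.02 ± 0.12 (SE) in DIO minus Lean. Of the 12 macrophage and monocyte markers 10 were higher, with a median of 0.26, and 1 passed over all genes (background 0.00354%). Their summed level ran from 24.3 to 41, from 26.2 to 47.2 and from 27.5 to 39.4. Of the 7 mast cell markers kept 5 were higher (median 1), and of 6 dendritic and Langerhans cell markers 4 were (median 0.22). All 6 red cell markers kept were higher, with a median of 1.12 and summed levels from 58.8 to 259, from 156 to 564 and from 92.4 to 311. Of the 5 B cell markers kept, 4 were lower in DIO (median -0.29), of 7 neutrophil markers 4 were lower (median -0.12), and of 4 eosinophil markers 2 were. In DIO-R minus DIO, 10 of 11 T and natural killer cell markers were lower (median -0.18), as were 11 of 12 macrophage and monocyte markers (median -0.32) and all 6 red cell markers (median -1.05). So were 5 of 7 mast cell markers (median -0.25) and 5 of 6 dendritic and Langerhans cell markers (median -0.17). The defining B cell marker Ms4a1 and natural killer cell marker Ncr1 were not kept. The part of leukocyte content in these receptor levels was not tested.

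Between DIO-R and DIO the leading gene of the family was Il2ra, the high-affinity chain of the interleukin 2 receptor on activated and regulatory T cells. Its levels ran from -2.23 over -1.71 to -1.41 in Lean, from -1.99 over -1.58 to -1.13 in DIO and from -2.22 over -1.89 to -1.69 in DIO-R. It differed by -0.36 ± 0.13 (SE) (limma adjusted p = 0.48), with 8 of 8 DIO-R samples below the DIO mean, beside the T cell and macrophage markers that were lower in the same comparison. Il13ra1, a chain of the receptor shared by interleukins 4 and 13, was 0.17 ± 0.07 (SE) higher in DIO-R than in DIO (limma adjusted p = 0.492), while Il4ra, its partner, differed by -0.06 ± 0.13 (SE). Il13ra2, the decoy receptor of interleukin 13, had an SD of 0.92 in DIO and differed by 0.61 ± 0.38 (SE). Il15, a cytokine that sustains natural killer and memory T cells, had means of -2.64, -2.69 and -2.93 in Lean, DIO and DIO-R, and all 8 DIO-R samples lay below the Lean mean (difference -0.29 ± 0.16 SE, limma adjusted p = 0.611). Il15ra, which presents it, was lower by 0.12 in DIO than in Lean by its main probe (-0.12 ± 0.15 SE) and higher by 0.24 ± 0.08 (SE) by a second probe, so its direction is not settled. Il7, an epithelial and stromal cytokine for lymphocytes, differed by 0.24 ± 0.18 (SE) in DIO minus Lean.

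Il3ra, the specific chain of the interleukin 3 receptor, was the gene with the second smallest unadjusted p in DIO minus Lean. It ran from -0.20 over 0.14 to 0.32 in Lean, from 0.03 over 0.43 to 0.78 in DIO and from -0.22 over 0.28 to 0.48 in DIO-R. DIO was 0.32 ± 0.11 (SE) higher, a 1.25-fold difference (limma adjusted p = 0.387), with 7 of 8 DIO samples above the Lean mean. Within slides 1, 2 and 3 the difference was 0.18, 0.37 and 0.50. Il5ra, the chain for the eosinophil cytokine interleukin 5, differed by 0.11 ± 0.26 (SE).

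Of the interleukin 6 and interleukin 12 families, Il6ra had small differences with a small spread. This ligand-binding chain of the interleukin 6 receptor had means of 3.58 ± 0.12 (SD, n = 7), 3.40 ± 0.21 (SD, n = 8) and 3.40 ± 0.11 (SD, n = 8). It differed by -0.18 ± 0.08 (SE) in DIO minus Lean (limma adjusted p = 0.548) and by -0.18 ± 0.08 (SE) in DIO-R minus Lean (adjusted p = 0.547), with 8 of 8 DIO-R samples below the Lean mean. Il6st, the signal-transducing chain of the family, differed by 0.08 ± 0.18 (SE) in DIO minus Lean and Il11ra1, the interleukin 11 receptor, by 0.08 ± 0.15 (SE). Il27ra, the interleukin 27 receptor chain, was 0.38 lower in DIO-R than in DIO (log2 difference -0.38 ± 0.16 SE, limma adjusted p = 0.492), with 7 of 8 samples below the DIO mean, and -0.12 with the normexp correction. Il23r, a receptor of interleukin 17-making lymphocytes, was well above background on 11 arrays and differed by 0.58 ± 0.33 (SE) in DIO-R minus Lean (limma adjusted p = 0.636), or 0.04 with the normexp correction. The Il12rb1 probes had opposite signs in DIO minus Lean, at -0.28 ± 0.29 (SE) and 0.40 ± 0.29 (SE).

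In the interleukin 17 family the ligand Il17b had the largest difference. Its levels ran from -4.99 over -4.28 to -3.43 in Lean, from -6.81 over -5.30 to -4.09 in DIO and from -5.98 over -5.24 to -2.60 in DIO-R. It differed by -1 ± 0.42 (SE) in DIO minus Lean (limma adjusted p = 0.48), and by -0.19, -2.03 and -0.93 within slides 1, 2 and 3; with the normexp correction it was -0.25. Its probe was well above background on 7 of 7 Lean, 6 of 8 DIO and 4 of 8 DIO-R arrays, so the low values lie near the detection limit. Il17a, the T cell cytokine, ran from -7.83 to -3.62 in Lean, from -4.90 to -3.19 in DIO and from -6.35 to -4.42 in DIO-R, and differed by 0.42 ± 0.45 (SE) in DIO minus Lean. Without Lean 9, its lowest sample at -7.83, the sign turned, to -0.08. Its receptor chains Il17ra and Il17rc differed by -0.10 ± 0.14 (SE) and -0.17 ± 0.12 (SE). Il25, a cytokine made by tuft-like chemosensory cells, had means of -3.61 ± 0.22 (SD, n = 7), -3.70 ± 0.54 (SD, n = 8) and -3.41 ± 0.60 (SD, n = 8).

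A further 15 probes of 14 of the 72 genes could be read. Their sign was opposite to that of the main probe for 5 in DIO minus Lean (Il1rap, Il12rb1, Il15ra, Il24 and Il9r), for 5 in DIO-R minus DIO and for 7 in DIO-R minus Lean.

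The 3 remaining genes were Il34, Il16 and Il4i1. Il34, a ligand of the macrophage growth factor receptor made by keratinocytes, differed by -0.13 ± 0.10 (SE) in DIO minus Lean. Il16, a chemoattractant of T cells, differed by 0.12 ± 0.20 (SE). Il4i1, an amino acid oxidase of myeloid and B cells, differed by 0.54 ± 0.33 (SE), and by 0.29 without DIO 10, its highest DIO sample at 0.32.

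**Figure D4:**
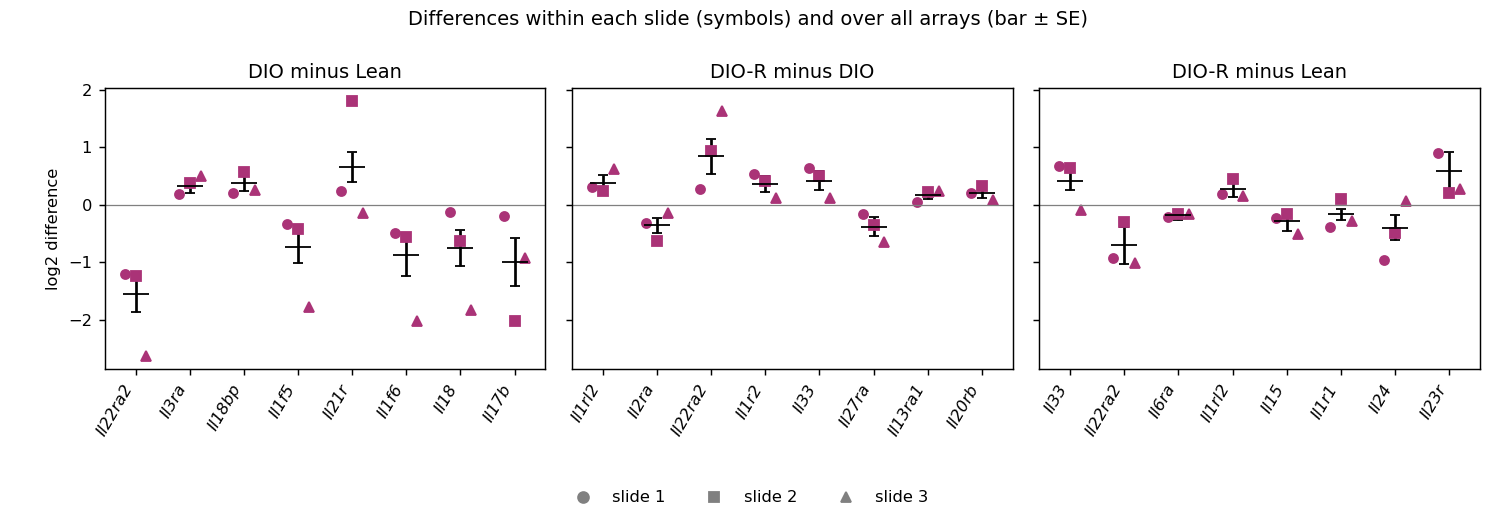
Log2 differences (y axis) of the 8 genes with the smallest unadjusted p in each comparison, over all arrays (bar with SE) and within slides 1, 2 and 3 (symbols; 2 or 3 arrays of each group on a slide). Il22ra2 is below 0 on all 3 slides in DIO minus Lean, at -1.20, -1.24 and -2.64, and Il21r changes sign on slide 3.

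Genes that act beside or after the interleukin receptors were counted in 5 lists. Of 25 genes of JAK-STAT signalling, which carries signals from most of these receptors, 0 passed in DIO minus Lean, 11 were higher (background 41.1%) and the median was -0.05. Pias2, an inhibitor of STAT proteins, differed by -0.25 ± 0.12 (SE). Against DIO, 17 of 25 were higher in DIO-R (background 51.6%), 6 at an unadjusted p under 0.05 (background 5.94%) and 0 passing. Among them were Stat6, which interleukins 4 and 13 activate, at 0.20 ± 0.07 (SE) and Socs3, a feedback inhibitor, at 0.34 ± 0.13 (SE). Against Lean, 18 of 25 were higher in DIO-R (background 44.5%) and 0 passed. Pias2 differed by -0.38 ± 0.12 (SE).

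Of 30 genes of interleukin 1 receptor signalling and the inflammasome, 18 were lower in DIO than in Lean, with a median of -0.06, beside -0.04 over all genes. Of the 30, 5 were lower at an unadjusted p under 0.05 (background 4.9%) and 0 passed. Nfkbib and Nfkbia, which hold NF-kB in the cytoplasm, differed by -0.27 ± 0.07 (SE) and -0.23 ± 0.07 (SE) (limma adjusted p = 0.183 and 0.339). Against DIO, 23 of 30 were higher in DIO-R (background 51.6%) with a median of 0.11 and 0 passing. Nfkbib differed by 0.25 ± 0.07 (SE) and Nfkb2, a subunit of NF-kB, by 0.19 ± 0.07 (SE). Between DIO-R and Lean the median was 0.02, with Nfkb2 at 0.24 ± 0.07 (SE) and Nfkbia at -0.16 ± 0.07 (SE).

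Epithelial targets of interleukins 17 and 22 held the single gene that passed in these lists. Of 18 kept, 15 were lower in DIO than in Lean, with a median of -0.39, beside -0.04 over all genes. At an unadjusted p under 0.05, 6 were lower (background 4.9%) and 1 higher (background 4.06%), with 0 passing. The 1 higher was Saa2, an acute-phase protein, at 1.56 ± 0.44 (SE) (limma adjusted p = 0.258), and Cxcl5, a neutrophil chemokine, differed by -0.66 ± 0.22 (SE) (adjusted p = 0.356). Cxcl5 fell in DIO-R against Lean, with a log2 difference of -1.11 ± 0.22 (SE) (limma adjusted p = 0.0338), where the list had a median of -0.07 and Saa2 differed by 1.33 ± 0.44 (SE). In DIO-R minus DIO the median was 0.11, and Fut2, a fucosyltransferase induced by interleukin 22, and Cxcl2, another neutrophil chemokine, differed by 0.33 ± 0.12 (SE) and 0.66 ± 0.25 (SE). Their summed level ran from 65.5 to 152 in Lean, from 52.1 to 146 in DIO and from 45.7 to 130 in DIO-R. Lean 7, DIO 8 and DIO-R 8 were the lowest of their groups and Lean 3, DIO 3 and DIO-R 4 the highest; for the summed differentiated keratinocyte markers the lowest were Lean 7, DIO 2 and DIO-R 8 and the highest Lean 3, DIO 3 and DIO-R 6.

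Of 13 targets of interleukins 4 and 13, 0 passed in any comparison and the medians were 0.03 in DIO minus Lean, -0.10 in DIO-R minus DIO and -0.04 in DIO-R minus Lean. Postn, a matrix protein, differed by 0.77 ± 0.28 (SE) and Arg1, an arginase, by -0.59 ± 0.25 (SE) in DIO minus Lean. Retnla, a resistin-like protein of type 2 immunity, differed by -0.99 ± 0.37 (SE) and Arg1 by 0.55 ± 0.24 (SE) in DIO-R minus DIO. Between DIO-R and Lean, Retnla differed by -0.98 ± 0.38 (SE) and Alox15, a lipoxygenase, by 0.53 ± 0.19 (SE).

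Of 16 receptor chains and cytokines of these families that carry other names, 0 passed in any comparison and the medians were 0.14, -0.06 and 0.04 in the same order. Csf2ra, the specific chain that pairs with the beta chain shared by the interleukin 3 and 5 receptors, differed by 0.51 ± 0.15 (SE) in DIO minus Lean (limma adjusted p = 0.287), and Cntfr, a receptor of the interleukin 6 family, by 0.48 ± 0.26 (SE). Csf2, the cytokine that Csf2ra binds, was 1.03 ± 0.35 (SE) higher in DIO-R than in DIO (limma adjusted p = 0.449), and Crlf2, a receptor chain used with Il7r, differed by -0.23 ± 0.12 (SE). In DIO-R minus Lean, Tslp, the epithelial ligand of Crlf2 and Il7r, differed by 0.54 ± 0.27 (SE).

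Promoters of 56 of the 72 genes, 70 sequences, could be read from RefSeq (GRCm38.p6), and only the 250 bases before each start were searched. The letters TGANTCA, an AP-1 motif, were found in 12 of the 70 sequences (17.1%), against 6.75% of 32851 promoters of the same length, and the letters TTCNNNGAA, a STAT motif, in 8 of 70 (11.4%) against 7.02%. Both motifs read the same on either strand and were searched once. Among the interleukin 1 family ligands, Il1a, Il1f8 and Il1rn held the AP-1 letters, and Il1f5 and Il1f9 the STAT letters. A match describes letters in the window and shows no binding. The 250 bases before the start are shown for an interleukin 36 agonist and for Il1a, with the AP-1 letters in capitals: Il1f8 at chr2:24152922-24153171, plus strand, and Il1a at chr2:129309973-129310222, minus strand.
Il1f8: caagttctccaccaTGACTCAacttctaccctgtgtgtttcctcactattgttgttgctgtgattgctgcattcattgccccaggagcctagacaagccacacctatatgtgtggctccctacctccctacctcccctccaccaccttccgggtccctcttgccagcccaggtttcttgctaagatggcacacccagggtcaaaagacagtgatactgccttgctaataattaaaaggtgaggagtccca
Il1a: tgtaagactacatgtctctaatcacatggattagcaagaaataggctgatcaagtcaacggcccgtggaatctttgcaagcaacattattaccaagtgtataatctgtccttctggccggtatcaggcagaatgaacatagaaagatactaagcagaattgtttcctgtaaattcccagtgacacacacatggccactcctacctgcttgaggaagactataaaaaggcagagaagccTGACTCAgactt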

How the data were processed

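Total RNA of each sample was hybridised to a 1-colour Agilent mouse array, 25 ng per sample per the labels. The deposited scanner intensity, background-subtracted within an array, came, per the submitters' processing notes, from Agilent Feature Extraction (version 10.10.1.1). The authors' deposited value table is on a log2 scale (35829 probes, column medians 7.63 to 7.64, Spearman correlation with the scanner values 0.998 to 0.999; 66 of the 72 genes have their probe there); its normalization steps stay unknown, and it served as an alternative.

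From the intensity, log2 minus the 75th percentile of each array was computed over spots that are not controls (3671 of 62976 are controls). Flagged outlier spots were left out, spots of a probe were averaged, and the brightest of the 55681 probes stood for each of 34797 symbols. Between 66.9% and 78.4% of probes were well above background per array and 0 spots were saturated; the number of arrays limits the precision. Groups were compared in 1 fit of all 23 arrays without covariates (limma 3.58.1, R 4.3.3, two-sided, Benjamini-Hochberg). The fit was run on simulated data with independent noise per gene and planted log2 differences of at least 1 in size. That run does not test smaller differences or noise shared between genes. Plots used Python 3.11.15 and matplotlib 3.10.9.

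The arrays lie on 3 slides of 8, 8 and 7, each with all groups; 202 genes (0.716%) differed between slides, none of the 72. Named genes are those passing, the 8 with the smallest unadjusted p in each comparison, a list of members by role and, per pathway list, those passing and the 2 with the smallest p; others were named after their values were seen. Some pathway genes that the rule names are not reported here. The members, lists and rule were chosen with earlier results of these data known, and families were grouped after values were seen. Alternatives covered background correction, normalization, filter, probe rule, slide, replicate number, samples in the fit, variance model, array weights and samples left out.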

Additional observations from a re-analysis of the deposited data

Results flagged for a closer look

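In 60 sets of a named gene and a group, 5 held a sample separated from the rest by more than Dixon's 95% critical value; chance flags about 1 in 20 groups. DIO-R 6 was the lowest of its group for Il3ra (-0.22, next 0.23), for Il18bp (-2.92, next -2.45) and for Il1r1 (-0.03, next 0.28). DIO-R 7 was the highest of its group for Il17b (-2.60, next -4.61), and DIO 10 was the highest of its group for Il23r (-3.65, next -5.21).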

How the results depend on the processing

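None of the 72 genes passed in DIO-R minus DIO or DIO-R minus Lean under any alternative run, and no gene among the 8 with the smallest unadjusted p of a comparison changed sign. The median over the 72 genes lay between -0.02 and 0.05 in DIO-R minus DIO and between -0.05 and 0.01 in DIO-R minus Lean, so its sign is not settled there. In DIO minus Lean 1 gene, Il22ra2, passed with the slide as a block, with array weights (1 gene), without DIO 1 and DIO 6 (1 gene; -1.83, limma adjusted p = 0.0285) and without DIO 6. Leaving out 1 sample at a time gave 0 to 1 passing, and for Il22ra2 -1.71 to -1.38 (adjusted p 0.0449 to 0.258); over the other alternatives its adjusted p lay between 0.0285 and 0.786. Leaving out 1 sample gave 6 to 14 genes at an unadjusted p under 0.05 in DIO minus Lean (6 without Lean 3 and 6 without Lean 9), 6 to 15 in DIO-R minus DIO (15 without DIO 3) and 1 to 5 in DIO-R minus Lean (1 without Lean 10, DIO-R 2 or DIO-R 3; 5 without Lean 3 or DIO 10). With only the 2 groups compared, 5 were found in DIO-R minus Lean. With the replicate number as a block (replicate block), 3 were found in DIO minus Lean and 1 in DIO-R minus Lean, and Il22ra2 differed by -1.35 (adjusted p = 0.786). Correlations of same-numbered samples ran from -0.24 to 0.32, -0.21 to 0.16 and -0.37 to 0.33 in the 3 comparisons. They cannot settle whether same-numbered samples are related, and the labels do not say. With the normexp correction, Il22ra2 differed by 0.31 in DIO-R minus DIO and -0.37 in DIO-R minus Lean, Il18bp by 0.23 in DIO minus Lean, and Il15 and Il24 by -0.18 and -0.23 in DIO-R minus Lean. With the replicate number as a block, Il1f6, Il18 and Il1f5 differed by -0.52, -0.47 and -0.45 in DIO minus Lean. The cause of these shifts was not tested. Genes near the background, such as Il17b and Il23r, are limited by their signal.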
